A study of Mus musculus with 8 samples.

Results

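The transcription factor p53 and 31 genes of its response other than p21 were examined in mouse embryonic fibroblasts (MEFs) with and without SLMAP3, a centrosomal protein that assembles with the STRIPAK phosphatase and kinase complex. The genes were taken by name from the table of gene counts, which lists 55401 genes, and all 32 were found and were tested. They were split by role into 6 genes of p53 and its regulators, 6 of cell cycle arrest, 13 of cell death, 4 of DNA repair and 3 of metabolism. The samples were 4 SLMAP3-/- and 4 wild-type (WT) lines, 1 library per line, with each line made from its own E14.5 embryo on the B6C3F1 background. In the SLMAP3-/- embryos a floxed Slmap exon had been removed by Cre under the CMV promoter, which acts in the whole embryo. All lines of both genotypes were untreated and proliferating, and all had been immortalised with the large T antigen of SV40. Replicates were thus separate embryos, and embryo sex was not given.

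p53, encoded by Trp53, is held at a low level by the ubiquitin ligase Mdm2 and is stabilised after DNA damage and other stress. It then binds DNA as a tetramer and activates genes that stop the cell cycle, trigger apoptosis, repair DNA or restrain metabolism, among them Mdm2 itself, which closes a negative feedback loop. The SV40 large T antigen is known to bind p53 and block its binding to DNA, and lines of both genotypes were made with it. The RNA level of Trp53 does not measure the amount or the activity of the p53 protein, which is controlled largely after transcription, and neither was measured here.

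A p53 binding site is made of a pair of similar decamers, and the promoters show how far the genes carry this sequence close to their start. Windows of 300 bases, 250 before and 50 after the annotated gene start, were found for 24 of the 32 genes in RefSeq (GRCm38.p6), some with more than 1 start. The 10-base p53 decamer was searched exactly by its consensus, which reads the same on both strands. It was present in 12 of 33 windows (36.4%), belonging to 11 genes, against 8.36% of all 32851 windows. A pair of decamers with a spacer of up to 13 bases was present in none of these windows and in 0.0731% of all windows. The stretches of the genes to which the results below return most often are given on the gene's own strand, 5′ to 3′, with the decamer in capitals. By GENCODE on the same build, the stretches of Trp53, Mdm2, Ppm1d and Ccng1 lie outside any annotated gene, upstream of the gene named, and that of Sesn1 lies in an intron, ahead of an internal start.
Trp53, chr11:69580264-69580313, plus strand: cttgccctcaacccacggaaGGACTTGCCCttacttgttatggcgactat
Mdm2, chr10:117710915-117710964, minus strand: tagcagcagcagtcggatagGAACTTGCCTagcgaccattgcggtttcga
Ppm1d, chr11:85311102-85311151, plus strand: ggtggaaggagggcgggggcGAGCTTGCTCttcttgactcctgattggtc
Ccng1, chr11:40755442-40755491, minus strand: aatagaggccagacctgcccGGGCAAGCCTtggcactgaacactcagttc
Sesn1, chr10:41887246-41887295, plus strand: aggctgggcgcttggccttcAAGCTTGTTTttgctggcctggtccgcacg
The decamer began 75 bases before the start in Trp53, 186 before it in Mdm2, 132 in Ppm1d, 185 in Ccng1 and 173 in Sesn1. Gadd45a, Gtse1, Bax, Aen, Ei24 and Polk also held it. The windows of Mdm4, Btg2, Plk2, Plk3, Fbxw7, Bbc3, Fas, Eda2r, Apaf1, Pidd1, Phlda3, Sesn2 and Ddit4 held no match, which says only that these letters are not in those windows. A match is a description of sequence and not a measured binding site.

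The libraries held between 49879059 and 63322486 estimated counts. Slmap, the targeted gene, was at 44.3, 32.7, 36.3 and 39.7 CPM (counts scaled to the size of the library) in the SLMAP3-/- lines and at 124, 139, 143 and 141 CPM in the WT lines, in each case replicates 1 to 4 in order. It was lower in the SLMAP3-/- lines (log2 fold change -1.84 ± 0.11, SE, edgeR's quasi-likelihood test, Benjamini-Hochberg adjusted p = 0.00119). By edgeR it was the 1 gene of 15461 tested to pass an adjusted p of 0.05, while DESeq2 called 11 genes at that level. The summed level of 10 fibroblast markers was 15806 to 21490 CPM in SLMAP3-/- and 18712 to 23553 CPM in WT lines. Summed markers reached at most 5.81 CPM for epithelial cells, 40.5 CPM for endothelial cells, 4.90 CPM for blood cells and 2.61 CPM for muscle and neural cells. Krt5, Tie1, Adgre1, Hbb-bs, Myod1, Myog and Sox10 were under 0.1 CPM in every line.

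None of the 32 genes passed an adjusted p of 0.05 between SLMAP3-/- and WT MEFs, by edgeR, DESeq2 or limma-voom. Of all tested genes edgeR called 0.00647%, DESeq2 called 11 genes of 33779 and limma-voom called 1 gene. At an unadjusted p of 0.05, edgeR called 2 of the 32, Tnfrsf10b and Ccng1, both lower in SLMAP3-/- lines, against 1.81% of all tested genes (0.847% lower in SLMAP3-/- lines). DESeq2 and limma-voom each called 3, adding Eda2r, beside 1.63% and 1.74% of all genes they tested. The log2 fold change of SLMAP3-/- against WT was below 0 for 20 genes and above 0 for 12, where 50.5% of all tested genes were below 0. Over the alternative fits the number below 0 ranged from 18 by limma-voom to 25 without WT replicate 3. The median log2 fold change was -0.07 over the 32 genes and -0.0014 over all tested genes, and the median size regardless of sign was 0.17 and 0.10. In bulk RNA, a difference in the share of cells that express a gene and one in the RNA per cell cannot be told apart.

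**Figure D1:**
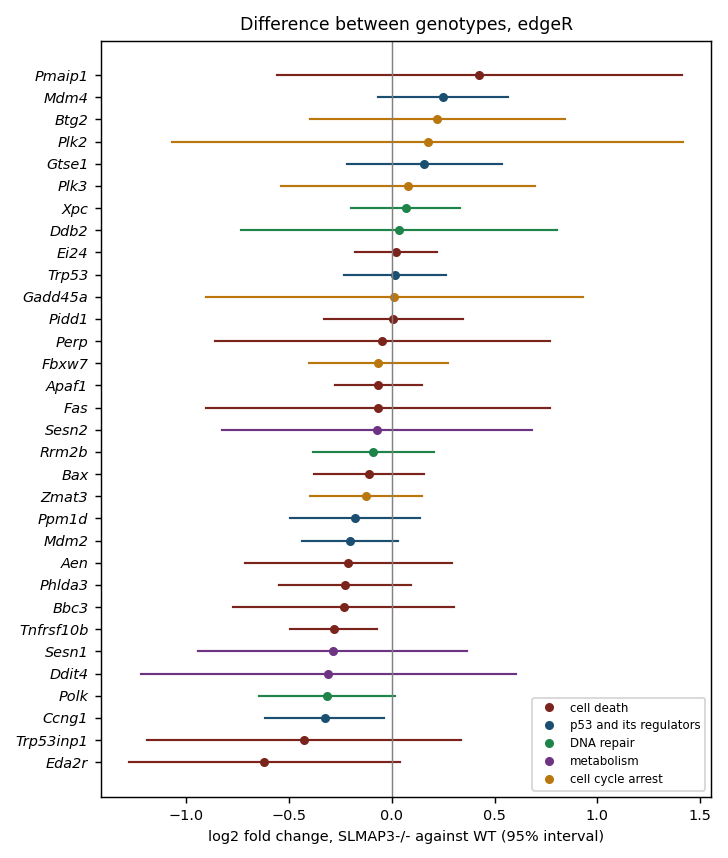
Log2 fold change of SLMAP3-/- against WT for each of the 32 genes (points, edgeR) with its 95% interval (lines), coloured by role and ordered by size. The interval lies wholly below 0 for Tnfrsf10b and Ccng1 and spans 0 for all other genes.

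The 5 roles did not share 1 direction. Among p53 and its regulators 3 genes were higher and 3 lower, with a median log2 fold change of -0.08. In the cell cycle arrest group 4 were higher and 2 lower (median 0.05), in cell death 3 were higher and 10 lower (median -0.11), in DNA repair 2 were higher and 2 lower (median -0.03), and in metabolism all 3 were lower (median -0.29). Tnfrsf10b of the death group and Ccng1 of the regulators were the only 2 that passed the unadjusted threshold.

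Trp53 itself (ENSMUSG00000059552.13, chromosome 11, 69580359 to 69591873, plus strand, GRCm38) did not differ detectably between genotypes. It was at 233, 220, 212 and 197 CPM in the SLMAP3-/- lines and at 242, 230, 192 and 190 CPM in the WT lines. The SLMAP3-/- values lay inside the range of the WT values. The means were 216 ± 15.1 and 213 ± 26.3 CPM (SD, n = 4 each), and the log2 fold change was 0.01 with a 95% interval of -0.23 to 0.26. Of its 31-base stretches 10.1% were shared with other genes, mainly the pseudogene Trp53-ps, which held at most 79 counts in any line.

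Mdm2 (ENSMUSG00000020184.15, chromosome 10, 117688875 to 117710758, minus strand), the ligase that marks p53 for degradation, was at 84.3, 90.4, 74.96 and 90.1 CPM in the SLMAP3-/- lines and at 112, 99.2, 91.9 and 88.3 CPM in the WT lines. Only WT replicate 4 fell below any SLMAP3-/- line. The log2 fold change was -0.20 ± 0.10 (SE, 95% interval -0.44 to 0.03, edgeR unadjusted p = 0.0789, adjusted p = 1.00).

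Mdm4, the relative of Mdm2 that blocks the activation domain of p53, was the regulator with the highest fold change. It was at 76.4, 77.1, 79.8 and 103 CPM in the SLMAP3-/- lines and at 84.8, 73.4, 64.1 and 61.0 CPM in the WT lines, with replicate 4 of SLMAP3-/- well above the rest and the groups overlapping. Its log2 fold change was 0.25 with an interval of -0.07 to 0.57. The log2 fold change of Mdm4 was 0.13 without SLMAP3-/- replicate 4 (edgeR unadjusted p = 0.307, adjusted p = 1.00) and 0.35 without WT replicate 1 (unadjusted p = 0.0314, adjusted p = 1.00).

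Ccng1, cyclin G1, which recruits a phosphatase to Mdm2 (ENSMUSG00000020326.7, chromosome 11, 40748552 to 40755311, minus strand), had the lowest fold change among the regulators. It was at 123, 147, 139 and 122 CPM in the SLMAP3-/- lines and at 196, 182, 141 and 148 CPM in the WT lines. WT replicates 1 and 2 stood above all others, while WT replicate 3 lay among the SLMAP3-/- values. The means were 133 ± 12.0 and 167 ± 26.4 CPM (SD, n = 4 each), a log2 fold change of -0.33 ± 0.13 (SE, 95% interval -0.62 to -0.04, edgeR unadjusted p = 0.0314, adjusted p = 1.00, exact two-sided permutation p = 0.0571). Leaving out SLMAP3-/- replicate 1 or 4 or WT replicate 1 or 2 took the unadjusted p of Ccng1 to between 0.0756 and 0.0853.

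Ppm1d, the phosphatase Wip1 that reverses damage signalling to p53, was at 20.9, 20.1, 22.1 and 21.3 CPM in SLMAP3-/- and at 20.1, 20.2, 26.6 and 28.4 CPM in WT lines. The 4 SLMAP3-/- lines were close together, with WT replicates 3 and 4 above them and the other two at their lower edge (log2 fold change -0.18, interval -0.49 to 0.14). Gtse1, a protein of G2 and M phase that moves p53 out of the nucleus, was at 70.1, 69.6, 61.3 and 100.2 CPM in SLMAP3-/- and at 71.5, 78.3, 60.1 and 59.9 CPM in WT lines. Replicate 4 of SLMAP3-/- was the highest of all, and without it the other lines overlapped (log2 fold change 0.16, interval -0.22 to 0.53).

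**Figure D2:**
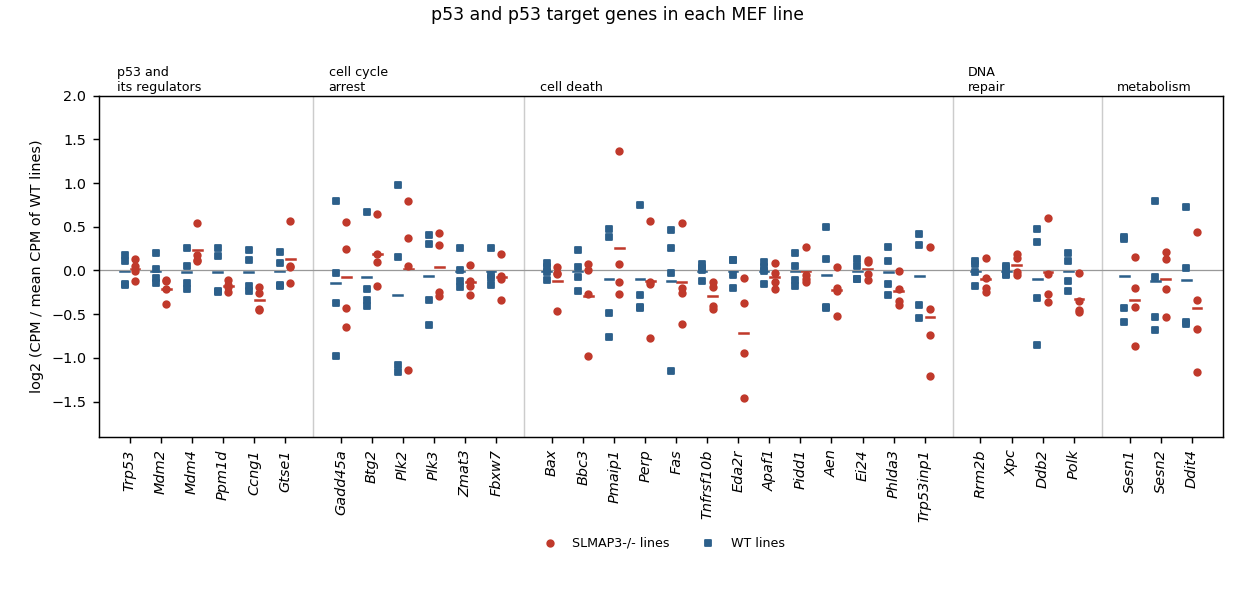
Normalised level of the 32 genes in each of the 8 lines, as the log2 ratio to the mean CPM of the WT lines, with 1 point per line, a dash at the mean of each genotype on this scale, and genes grouped by role. Tnfrsf10b is the gene whose 4 SLMAP3-/- points all lie below its 4 WT points, and Trp53 overlaps fully.

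Among the genes of cell cycle arrest, Btg2, an antiproliferative factor that speeds mRNA decay, had the highest fold change. It was at 53.2, 38.5, 30.1 and 36.4 CPM in SLMAP3-/- and at 26.9, 54.0, 25.6 and 29.3 CPM in WT lines. The 4 SLMAP3-/- lines all lay above 3 of the WT lines, and WT replicate 2 lay above them all. The log2 fold change was 0.22 ± 0.27 (SE, interval -0.40 to 0.84), and leaving out single lines took it from 0.046 without SLMAP3-/- replicate 1 (edgeR unadjusted p = 0.869, adjusted p = 1.00) to 0.54 without WT replicate 2 (unadjusted p = 0.0246, adjusted p = 1.00). Zmat3, an RNA-binding zinc finger protein, had the lowest fold change of the group, with 51.3, 49.1, 58.0 and 45.9 CPM in SLMAP3-/- and 56.1, 66.6, 48.8 and 51.3 CPM in WT lines, and the groups overlapped (log2 fold change -0.13, interval -0.40 to 0.15).

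The stress kinase Plk3 was at 23.5, 21.4, 14.3 and 14.8 CPM in SLMAP3-/- and at 21.5, 23.3, 13.8 and 11.4 CPM in WT lines. Replicates 1 and 2 of both genotypes were high and replicates 3 and 4 low, and the log2 fold change was 0.08 (interval -0.54 to 0.70). Gadd45a, which binds PCNA and the mitotic kinase CDK1 after damage, was at 10.8, 21.4, 17.2 and 9.30 CPM in SLMAP3-/- and at 25.2, 14.3, 7.36 and 11.3 CPM in WT lines. Its lines ranged over more than the genotypes differed (log2 fold change 0.01, interval -0.91 to 0.93). Plk2, a kinase of centriole duplication, was at 93.7 ± 44.3 and 83.0 ± 59.4 CPM (log2 fold change 0.17, interval -1.07 to 1.42), and Fbxw7, which targets cyclin E for degradation, was at 17.2 ± 2.57 and 18.0 ± 2.44 CPM (SLMAP3-/- and WT, SD, n = 4 each, log2 fold change -0.07).

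Among the genes of cell death, Tnfrsf10b, the death receptor for the ligand TRAIL (ENSMUSG00000022074.6, chromosome 14, 69767472 to 69784411, plus strand), was the 1 gene of the 32 whose genotypes did not overlap, where 1.25% of all tested genes did not. It was at 74.9, 77.9, 64.6 and 63.2 CPM in the SLMAP3-/- lines and at 85.8, 90.2, 78.7 and 87.0 CPM in the WT lines. The highest SLMAP3-/- line and the lowest WT line lay close together. The means were 70.2 ± 7.35 and 85.4 ± 4.84 CPM (SD, n = 4 each), a log2 fold change of -0.28 ± 0.09 (SE, 95% interval -0.50 to -0.07, edgeR unadjusted p = 0.0150, adjusted p = 1.00). The exact two-sided permutation p was 0.0286, the smallest that 4 against 4 lines allow. Of its 31-base stretches 10.8% were shared with other genes, of which the main sharer Gm15574 held at most 2 counts.

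The other receptors of the death group were not alike. Eda2r, the receptor for ectodysplasin A2, had the lowest fold change of all 32 genes, with 4.52, 6.68, 8.18 and 3.14 CPM in SLMAP3-/- and 7.51, 8.34, 9.38 and 9.40 CPM in WT lines. SLMAP3-/- replicate 3 overlapped WT replicate 1, and the other SLMAP3-/- lines were below all WT lines. The log2 fold change was -0.62 ± 0.29 (SE, interval -1.28 to 0.04), with an unadjusted p of 0.0623 by edgeR, 0.0328 by DESeq2 and 0.0350 by limma-voom. Fas, the receptor for Fas ligand, was at 9.58 ± 3.50 and 10.0 ± 4.02 CPM (SD, n = 4 each, log2 fold change -0.07, interval -0.90 to 0.77).

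Of the BCL-2 family, Pmaip1 (NOXA) had the highest fold change of the death genes and of all 32. It was at 13.9, 39.3, 12.6 and 15.99 CPM in SLMAP3-/- and at 21.2, 19.9, 10.9 and 8.96 CPM in WT lines. Replicate 2 of SLMAP3-/- alone was above the WT lines, and without that line the log2 fold change went from 0.43 (interval -0.56 to 1.41) to -0.10. Bax, the pore-forming effector, was at 94.8 ± 13.99 and 102 ± 5.78 CPM (log2 fold change -0.11), and Bbc3 (PUMA), a trigger of Bax, at 10.0 ± 2.90 and 11.8 ± 1.61 CPM (log2 fold change -0.24). SLMAP3-/- replicate 4 was the lowest of all 8 lines for both, at 74.1 CPM of Bax and 5.98 CPM of Bbc3, and without that line the log2 fold changes were -0.0098 and -0.055.

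The remaining 7 death genes did not pass the threshold either. Trp53inp1, a stress protein that promotes the pro-death phosphorylation of p53, was at 39.2 ± 17.4 CPM in SLMAP3-/- and 52.8 ± 17.1 CPM in WT lines (SD, n = 4 each, log2 fold change -0.43, interval -1.19 to 0.34). Phlda3, an inhibitor of Akt at the membrane, was at 55.4 ± 6.84 and 64.8 ± 11.0 CPM (log2 fold change -0.23), and the nuclease Aen at 54.7 ± 8.61 and 63.4 ± 20.2 CPM (log2 fold change -0.21). Without WT replicate 2 the log2 fold change of Aen was -0.0027 and that of Phlda3 -0.13. That of Trp53inp1 was -0.24 without SLMAP3-/- replicate 4 and -0.76 without SLMAP3-/- replicate 3. The other four were nearer 0 over all lines. Apaf1, the scaffold of the apoptosome, was at 61.4 ± 5.47 and 64.3 ± 4.74 CPM (log2 fold change -0.07), Perp, a membrane protein of desmosomes, at 11.0 ± 4.26 and 11.3 ± 5.19 CPM (-0.05), Pidd1, the scaffold that activates caspase-2, at 12.1 ± 1.63 and 12.0 ± 1.43 CPM (0.01), and Ei24, a protein of the endoplasmic reticulum, at 68.7 ± 5.11 and 67.8 ± 5.35 CPM (0.02).

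Among the genes of DNA repair, Polk, a polymerase that copies past damaged bases, was lowest in fold change. It was at 18.8, 20.6, 19.2 and 25.7 CPM in SLMAP3-/- and at 22.4, 24.2, 30.2 and 28.2 CPM in WT lines. Replicate 4 of SLMAP3-/- alone lay among the WT lines (log2 fold change -0.32 ± 0.14, SE, interval -0.65 to 0.01, edgeR unadjusted p = 0.0578, and 0.0130 without that line). Xpc, which recognises distorted DNA, had the highest fold change of the group, with 11.4, 11.1, 13.05 and 12.7 CPM in SLMAP3-/- and 11.9, 11.2, 11.7 and 11.1 CPM in WT lines (log2 fold change 0.07, interval -0.20 to 0.33).

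Ddb2, which finds ultraviolet lesions, was at 5.31, 5.68, 10.3 and 6.65 CPM in SLMAP3-/- and at 3.77, 5.49, 9.498 and 8.57 CPM in WT lines. Replicate 3 was the highest of its genotype on both sides, and the genotypes overlapped (log2 fold change 0.03, interval -0.74 to 0.80). Rrm2b, a ribonucleotide reductase subunit that supplies nucleotides for repair, was at 15.4 ± 1.92 and 16.4 ± 1.401 CPM (SD, n = 4 each, log2 fold change -0.09).

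The metabolic genes all had values below 0 and wide intervals. Ddit4 (REDD1), an inhibitor of mTORC1, was lowest, with 25.2, 31.9, 54.6 and 18.0 CPM in SLMAP3-/- and 66.6, 26.4, 41.0 and 26.8 CPM in WT lines. The groups overlapped over most of their range (log2 fold change -0.31 ± 0.40, SE, interval -1.22 to 0.60), and without WT replicate 1 the value was above 0, at 0.05. Sesn2, a leucine sensor upstream of mTORC1, was at 28.3, 36.0, 38.0 and 22.8 CPM in SLMAP3-/- and at 57.2, 31.2, 22.6 and 20.5 CPM in WT lines, where WT replicate 1 stood alone at the top (log2 fold change -0.07, interval -0.83 to 0.68). Its relative Sesn1 was at 26.2, 22.6, 33.5 and 16.6 CPM in SLMAP3-/- and at 20.1, 22.4, 39.4 and 38.9 CPM in WT lines, with WT replicates 3 and 4 the highest (log2 fold change -0.29, interval -0.94 to 0.36). Leaving out single lines moved the log2 fold change of Sesn1 between -0.47 without SLMAP3-/- replicate 3 and -0.13 without WT replicate 3.

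Per kilobase of annotated exon, the levels in WT lines were highest for Bax (64.9 CPM per kb), Trp53 (52.8), Ccng1 (47.5) and Phlda3 (41.6). They were lowest for Eda2r (1.47 CPM per kb), Rrm2b (1.80) and Xpc (2.09). Genes of the same role thus stood far apart in level, since Bax and Eda2r are both death genes.

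The lines of 1 genotype differed among themselves to very different extents by gene. The SD of log2 CPM within genotypes was smallest for Xpc (0.09), Ei24 (0.11), Apaf1 (0.12) and Tnfrsf10b (0.12). It was largest for Plk2 (0.94), Pmaip1 (0.69), Gadd45a (0.66), Ddit4 (0.65) and Fas (0.61). Read against tested genes within 0.5 of the same mean log2 CPM, 12 of the 32 lay above the 75th percentile of this spread and 5 above the 90th, namely Plk2, Ddit4, Trp53inp1, Pmaip1 and Sesn2. The median over the 32 was 0.23, beside 0.28 over all tested genes, which were not matched for level. Among the genes of like mean, the median spread ran from 0.17 for those matched to Bax to 0.34 for those matched to Ddb2. The 0.28 therefore does not rank the 32 against genes of like level.

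WT replicate 1 was the highest of the 8 lines for 10 of the 32 genes (31.2%, beside 16.96% of all tested genes), and SLMAP3-/- replicate 4 was the lowest for 10 (31.2%, beside 16.6%). Both shares describe single lines, and what set these 2 lines apart was not tested.

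**Figure D3:**
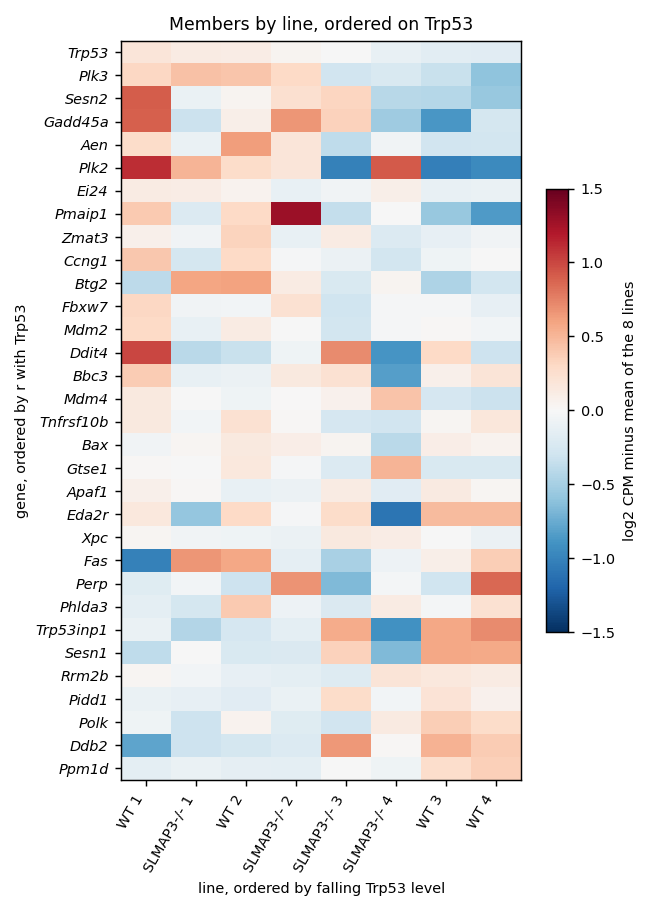
Log2 CPM of each gene in each line after subtraction of the gene's mean over the 8 lines, with genes ordered by their correlation with Trp53. Plk3 and Sesn2 follow Trp53 at the top, and Ddb2 and Ppm1d run opposite to it at the bottom.

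Whether the genes followed the level of Trp53 over the 8 lines was then examined on log2 CPM. Of 31 genes 18 correlated positively and 13 negatively (47.6% of all tested genes positively). An exact permutation p under 0.05 was reached by 4 genes, beside 17.6% of all tested genes, and r of at least 0.7 in size by 5, beside 18.8%. The share among the p53 genes was therefore near that of all genes. After Benjamini-Hochberg adjustment over all tested genes, no gene of the table passed, and the lowest adjusted permutation p among the 31 was 0.153.

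Plk3 followed Trp53 most closely (Pearson r = 0.91, exact permutation p = 0.00407, adjusted 0.153, Spearman rho = 0.90, exact permutation p = 0.00456). The next was Sesn2 (r = 0.80, exact permutation p = 0.0162, adjusted 0.210, rho = 0.76, exact permutation p = 0.0368), and then Gadd45a (r = 0.69, exact permutation p = 0.0646, rho = 0.57, exact permutation p = 0.151). The opposite course was taken by Ppm1d (r = -0.82, exact permutation p = 0.00392, adjusted 0.153, rho = -0.88, exact permutation p = 0.00724), Ddb2 (r = -0.81, exact permutation p = 0.0201, rho = -0.83, exact permutation p = 0.0154) and Polk (r = -0.71, exact permutation p = 0.0584, rho = -0.69, exact permutation p = 0.0694). Mdm2, the feedback target, had an r of 0.39. The sample labels carry a running number, in which replicates 1 and 2 of both genotypes come before replicates 3 and 4. In each genotype, Trp53 and Plk3 were higher in replicates 1 and 2 than in replicates 3 and 4. Ppm1d and Ddb2 were lower in replicates 1 and 2. For these genes a relation to Trp53 and one to this order cannot be told apart.

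The 2 lines farthest from the median of Trp53 were WT replicates 4 and 3. Without them Plk3 kept an r of 0.84 (exact permutation p = 0.0347). Sesn2 was then at 0.65, Ppm1d at -0.64, Ddb2 at -0.70, Gadd45a at 0.52 and Polk at -0.31, with exact permutation p-values of 0.165, 0.181, 0.118, 0.282 and 0.542, so that of the 6 genes Plk3 alone stayed under 0.05 over these 6 lines and Polk moved most. With each genotype centred on its own mean, r was 0.91 for Plk3, 0.80 for Sesn2, -0.88 for Ppm1d, -0.82 for Ddb2 and -0.89 for Polk. Within the SLMAP3-/- lines alone r was 0.86, 0.41, -0.41, -0.45 and -0.85 in the same order. Within the WT lines alone it was 0.95, 0.92, -0.98, -0.97 and -0.97. Plk3 overlaps Tctex1d4, Ddb2 overlaps Acp2 and Polk overlaps Gm17622, all on the opposite strand, and whether the counting used strand was not given.

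**Figure D4:**
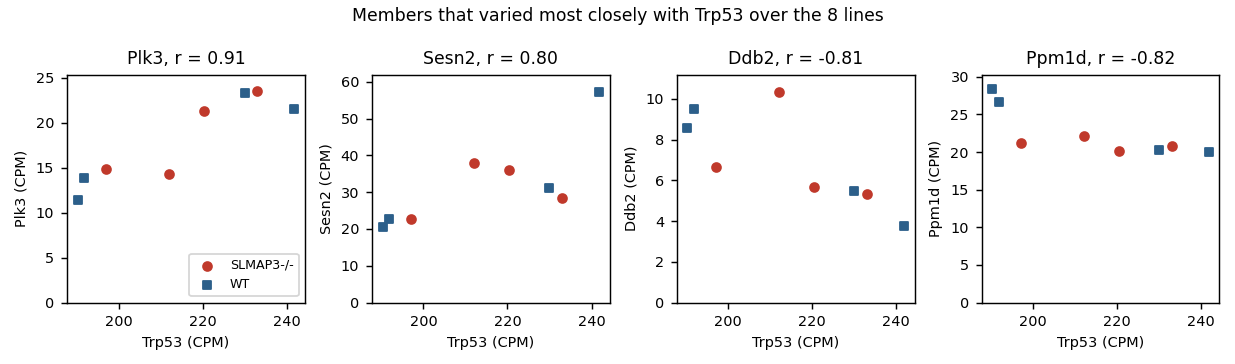
CPM of Plk3, Sesn2, Ddb2 and Ppm1d against CPM of Trp53, with 1 point per line and SLMAP3-/- and WT lines in different colours. Plk3 rises along the Trp53 axis with points of both genotypes mixed (r = 0.91), and WT replicates 3 and 4 sit at the low Trp53 end of every panel.

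Against Cdkn1a, the gene of p21, which was at 56.7 ± 6.06 CPM in SLMAP3-/- and 89.8 ± 10.5 CPM in WT lines (SD, n = 4 each, log2 fold change -0.66, adjusted p = 1.00 by edgeR and 0.00854 by DESeq2), 3 of the 32 genes reached an exact permutation p under 0.05, beside 2.28% of all tested genes. These were Tnfrsf10b (r = 0.80, exact permutation p = 0.0190, rho = 0.88, exact permutation p = 0.00724), Ccng1 (r = 0.74, exact permutation p = 0.0359, rho = 0.81, exact permutation p = 0.0218) and Phlda3 (r = 0.72, exact permutation p = 0.0495, rho = 0.76, exact permutation p = 0.0368), with adjusted values of 1.00. Without the 2 lines farthest from the median of Cdkn1a, SLMAP3-/- replicate 1 and WT replicate 4, r was 0.92, 0.83 and 0.53. The exact permutation p-values were then 0.00972, 0.05 and 0.292. Centred within genotype, r was 0.25 for Tnfrsf10b, 0.33 for Ccng1 and 0.73 for Phlda3, so that within genotypes the first pair followed Cdkn1a less closely than over all lines.

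Between the genes themselves, 11 of 496 pairs had r of at least 0.8 and 15 had r of at most -0.8, together 5.24% of pairs, beside 4.26% over all pairs of tested genes. The strongest pairs joined different roles, as do most of the 496 pairs. Sesn1 ran with Trp53inp1 (r = 0.91) and against Plk2 (r = -0.93) and Gtse1 (r = -0.90). Gtse1 also ran against Trp53inp1 (r = -0.92), and Gadd45a ran with Sesn2 (r = 0.89). The median size of r was 0.33 for pairs within 1 role and 0.36 for pairs of different roles. These values are descriptions over the same 8 libraries.

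The same genes were also arranged along the level of cell division genes. Over 16 genes of G2 and M phase, the mean log2 CPM was highest in SLMAP3-/- replicate 4 (7.70) and lowest in WT replicate 4 (6.96). All 16 had a log2 fold change above 0 (median 0.19), and none passed an unadjusted p of 0.05 by edgeR, DESeq2 or limma-voom. Leaving out SLMAP3-/- replicate 3 or WT replicate 2 each gave 2, beside 2.56% and 2.40% of all tested genes. Without SLMAP3-/- replicate 4, 11 of the 16 were above 0 and the median was 0.048. The 3 with the smallest unadjusted edgeR p were Plk1, a mitotic kinase (log2 fold change 0.28), Aurkb, the kinase of the chromosomal passenger complex (0.22), and Ccnb2, cyclin B2 (0.15), with unadjusted p-values of 0.0632, 0.114 and 0.154.

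Along this mean, which was added after the values were seen, 8 of the 32 genes had an exact permutation p under 0.05, beside 15.7% of all tested genes, and none had an adjusted p under 0.05. Gtse1, itself a gene of G2 and M phase, ran with it (r = 0.98, exact permutation p = 0.000942, adjusted 0.113, rho = 0.90, exact permutation p = 0.00456). Trp53inp1 ran against it (r = -0.95, exact permutation p = 9.92e-05, adjusted 0.0660, rho = -0.95, exact permutation p = 0.00114), as did Eda2r (r = -0.90, exact permutation p = 0.00203, rho = -0.79, exact permutation p = 0.0279) and Sesn1 (r = -0.88, exact permutation p = 0.00241, rho = -0.76, exact permutation p = 0.0368). SLMAP3-/- replicate 4 and WT replicate 4 were the 2 farthest lines. Without them r was 0.92 for Gtse1, -0.99 for Trp53inp1, -0.63 for Eda2r and -0.85 for Sesn1 (exact permutation p = 0.025, 0.00556, 0.153 and 0.0569). The remaining genes were Plk2, Mdm4, Bbc3 and Apaf1, with r of 0.79, 0.86, -0.85 and -0.75 over all lines. Without those 2 lines their r was 0.89, 0.38, -0.36 and -0.73 (exact permutation p = 0.0361, 0.501, 0.449 and 0.117). Over all lines the level of division genes moved with or against these members, and its part in their differences between genotypes was not tested.

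**Figure D5:**
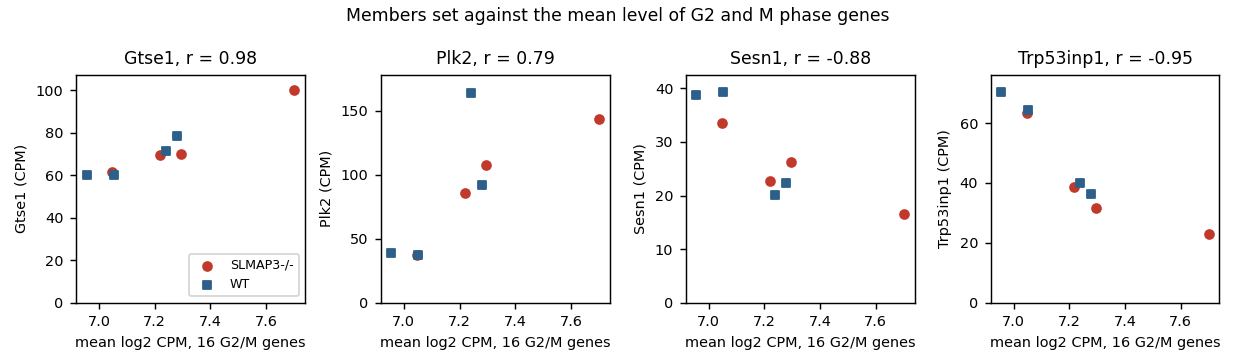
CPM of Gtse1, Plk2, Sesn1 and Trp53inp1 against the mean log2 CPM of 16 genes of G2 and M phase, with 1 point per line. Gtse1 and Plk2 go up and Sesn1 and Trp53inp1 go down along the axis, and SLMAP3-/- replicate 4 is the line at the far right of each panel.

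Of 15 tested genes upstream of p53, such as its kinases and ligases, 1 passed an unadjusted p of 0.05, beside 1.81% of all tested genes. This was Rchy1, a ubiquitin ligase for p53 also called Pirh2, at 29.8, 30.4, 29.6 and 26.7 CPM in SLMAP3-/- and 33.4, 34.2, 32.2 and 36.2 CPM in WT lines, with no overlap (log2 fold change -0.22 ± 0.08, SE, edgeR unadjusted p = 0.0288, adjusted p = 1.00). Without SLMAP3-/- replicate 4, WT replicate 2 or WT replicate 4 no gene of that list passed. Prkdc, the catalytic subunit of DNA-PK, and Trp63, the p53 relative p63, came next, with log2 fold changes of -0.26 and -0.69 (edgeR unadjusted p = 0.309 and 0.362, adjusted p = 1.00).

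Of 20 further p53 targets, p21 included, 2 passed the unadjusted threshold in opposite directions, beside 1.81% of all tested genes. Cdkn1a was lower in SLMAP3-/- lines (edgeR unadjusted p = 0.000322, adjusted p = 1.00). By DESeq2 it passed the adjusted threshold, as given above, and the paper reported its fall by RNA-seq and by RT-qPCR. Gdf15, a secreted stress cytokine, was higher, at 1.16, 1.60, 1.69 and 1.78 CPM against 0.452, 0.522, 1.34 and 0.918 CPM (log2 fold change 0.94 ± 0.39, SE, edgeR unadjusted p = 0.0387, adjusted p = 1.00). The third was Sfn, 14-3-3 sigma, with a log2 fold change of 1.53 (interval -0.02 to 3.08, edgeR unadjusted p = 0.0526, adjusted p = 1.00). DESeq2 called 4 of this list, beside 1.63% of all its genes. The count was 1 without SLMAP3-/- replicate 2, SLMAP3-/- replicate 4 or WT replicate 4, beside 1.61%, 2.01% and 1.24% of all tested genes. Without WT replicate 1 it was 4, beside 3.47%.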

How the data were processed

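RNA-seq libraries (Illumina Stranded mRNA) of 8 MEF lines, 4 SLMAP3-/- and 4 WT, were quantified by the authors with Salmon against GRCm38 (GENCODE M25), and length-scaled estimated counts per gene were deposited. A second deposited table, with mean counts, log2 fold changes and p-values from the authors' DESeq2 comparison, was not used. Versions are not given in the sources used here. Because these counts are scaled by transcript length and by library, they are not raw read counts, and they were rounded to whole numbers. The members and all gene lists were chosen with earlier results of these data known.

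Genes were kept by filterByExpr (minimum count 10), scaled by TMM and tested with edgeR 4.0.16 in R 4.3.3 (quasi-likelihood, Benjamini-Hochberg over 15461 genes). DESeq2 1.42.0, limma-voom 3.58.1, other filters and scalings, a covariate of Y-linked expression, a replicate block and leaving out each line were alternatives. The edgeR, DESeq2 and limma-voom fits and the permutation correlation were tested on simulated data. Depth was 49879059 to 63322486 estimated counts per line. Log2 CPM used a prior count of 2. Permutation tests were exact and two-sided, over 70 splits or 40320 pairings, with scipy 1.17.1.

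Values were given by line for Trp53, Mdm2, members whose genotypes did not overlap or with an unadjusted p under 0.05, the highest and lowest fold change of each role, and the 3 highest and lowest correlations with Trp53. Sesn1, Rchy1, Gdf15 and Gtse1 were added after their values were seen. Gene positions and lengths came from GENCODE M21 on the same build. No sample outside these groups was used, and batches were not given. What the running number in the sample labels stands for was not given either.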

Additional observations from a re-analysis of the deposited data

Results flagged for a closer look

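In 5 of the 64 groups of 4 lines checked, 1 line stood far from the other three, where chance alone gives about 1 in 20 groups, or 3.2. The value is the gap to the nearest line as a share of the group's whole range, which was above Dixon's 95% critical value in each case. Mdm4 in SLMAP3-/- replicate 4 was at 103 CPM against 76.4 to 79.8 CPM in the other SLMAP3-/- lines (0.874). Bax in the same line was at 74.1 CPM against 99.8 to 105 CPM (0.836). Pmaip1 in SLMAP3-/- replicate 2 was at 39.3 CPM against 12.6 to 15.99 CPM (0.873). Btg2 in WT replicate 2 was at 54.0 CPM against 25.6 to 29.3 CPM (0.871). Perp in WT replicate 4 was at 19.1 CPM against 8.46 to 9.30 CPM (0.920).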

How the results depend on the processing

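No member passed an adjusted p of 0.05 under any alternative. Tnfrsf10b kept an unadjusted p under 0.05 in all 16 alternatives. The number of members under that threshold was 2 and ranged from 1 to 4 when 1 line was left out. In the same fits the share of all tested genes ranged from 1.24% without WT replicate 4 to 3.47% without WT replicate 1. It was 2.56% without SLMAP3-/- replicate 3, which gave the 4 members. The number without overlap was 1 and ranged from 1 to 3. The number with r of at least 0.7 in size with Trp53 was 5 and ranged from 4 to 11. For these last counts the shares of all tested genes with 1 line left out are not given here, so their ranges cannot be read as particular to the members. For the further p53 targets the number under the unadjusted threshold was 2, ranged from 1 to 4 when 1 line was left out, and was 4 by DESeq2. For the genes upstream of p53 it was 1, ranged from 0 to 1, and was 0 with no filter on low counts. For the genes of G2 and M phase it was 0 and ranged from 0 to 2.

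The sign of some log2 fold changes near 0 turned: Gadd45a was -0.0019 by DESeq2, and Fas was 0.0087 and Sesn2 0.017 by limma-voom. Leaving out 1 line at a time turned the sign of 14 genes, with log2 fold changes that ranged over these fits for Ddb2 from -0.21 to 0.23, Ddit4 from -0.68 to 0.051, Ei24 from -0.014 to 0.069, Fas from -0.34 to 0.13, Fbxw7 from -0.16 to 0.037, Gadd45a from -0.22 to 0.42, Gtse1 from -0.010 to 0.25, Perp from -0.32 to 0.33, Pidd1 from -0.091 to 0.080, Plk2 from -0.11 to 0.74, Plk3 from -0.079 to 0.25, Pmaip1 from -0.099 to 0.63, Sesn2 from -0.24 to 0.34, and Trp53 from -0.036 to 0.084. Others kept their sign but moved by over 1.5 times: Mdm2 was at -0.13 without WT replicate 1, Ppm1d at -0.081 without WT replicate 4 and Zmat3 at -0.027 without WT replicate 2, and Apaf1 ranged from -0.12 to -0.021, Rrm2b from -0.18 to -0.042 and Xpc from 0.028 to 0.11. The causes were not tested.

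The replicate numbers of the 2 genotypes did not pair the lines, since same-numbered lines correlated at -0.157, 0.058, 0.187 and -0.003, and 1 of 4 numbers matched best with itself. SLMAP3-/- replicate 3 and WT replicate 4 share a number in their line names. What that number stands for was not given, and a relation between these lines was not tested. With the replicate number as a block, 3 members passed the unadjusted threshold (Ccng1, Polk and Tnfrsf10b), beside 1.90% of all tested genes, and 0 the adjusted one. Sesn2 was then at 0.029, and the counts were 4 for further p53 targets and 0 for genes upstream of p53. Slmap had an adjusted p of 0.171 by edgeR in this fit.

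With 4 lines per genotype, the 95% intervals of Plk2, Pmaip1, Gadd45a and Ddit4 were wide and spanned 0. Large T antigen and protein levels were not measured here. With Y-linked expression as a covariate, the same 2 members, Tnfrsf10b and Ccng1, passed the unadjusted threshold, beside 1.38% of all tested genes.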
